A study of Homo sapiens with 2 samples.

Results

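PHF8 binding was examined at places where the ends of 2 or more neighbouring protein-coding genes lie close together. The cells were RKO, an established line from a human colon carcinoma, that had received either vector or an APOC2 overexpression plasmid, APOC2 being an apolipoprotein gene. Chromatin bound by PHF8 was immunoprecipitated and sequenced (ChIP-seq). Each condition had 1 library and 1 peak table. No comparison between conditions could therefore be set against variation between replicates, and all values describe these libraries. A gene-pair peak was an APOC2 peak whose midpoint lay within 1 kb of the annotated start or end of at least 2 protein-coding genes that did not overlap each other (RefSeq, GRCh38.p14). By this rule 638 of the 8928 APOC2 peaks were gene-pair peaks (7.15%), which is 14.4% of the 4421 APOC2 peaks at any protein-coding gene boundary. They were set against 3553 single-gene peaks, which lay at a boundary of exactly 1 protein-coding gene. Of the single-gene peaks 28.6% also had a noncoding gene boundary within 1 kb, as had 7.37% of the gene-pair peaks. A further 230 peaks lay only at genes that overlapped each other. The choice used position and annotation, and no measured signal beyond the peak call itself.

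PHF8 is a histone demethylase that removes repressive methyl marks from lysines and binds, through its PHD finger, the trimethylated lysine of histone H3 that marks active gene starts. Many human genes are arranged in pairs that start close together on opposite strands and are transcribed away from a shared, usually CpG-rich promoter, here called head-to-head pairs. Tandem neighbours lie on the same strand, so the end of 1 gene faces the start of the next, and tail-to-tail neighbours face each other with their ends. Housekeeping functions such as mitochondrial metabolism and DNA repair are known to be common among head-to-head pairs.

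These examples show the stretch between the starts of head-to-head pairs, since this is the part that both genes share. They are not the sequences of the peaks. The listed APOC2 peak overlapped the stretch only at POMT2/GSTZ1 and KIN/ATP5F1C, and there only at its edge. At the other pairs shown it lay beside the stretch. The first 4 are among the 5 strongest peaks at head-to-head pairs with 20 to 250 bp between the starts. The other of these 5, LOC124904903/PLCG1, is not shown, and its stretch of 29 bases held no match to the motifs searched. The 3 others shown are well-known pairs. Each is written 5′ to 3′ on the plus strand from the RefSeq promoter sequences (GRCh38.p14), without any transcribed base of either gene as annotated. Capitals mark exact matches, on either strand, to CCAAT, the GC box GGGCGG, the ETS family motif CCGGAAG or the NRF1 palindrome, which are 4 of the 8 motifs searched.
C19orf47/PLD3 (chr19:40348528-40348694): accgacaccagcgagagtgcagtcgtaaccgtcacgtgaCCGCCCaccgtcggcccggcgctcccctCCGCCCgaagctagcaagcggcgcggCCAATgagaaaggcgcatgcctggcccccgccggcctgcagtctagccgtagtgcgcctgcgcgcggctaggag
NDUFA8/MORN5 (chr9:122159780-122159907): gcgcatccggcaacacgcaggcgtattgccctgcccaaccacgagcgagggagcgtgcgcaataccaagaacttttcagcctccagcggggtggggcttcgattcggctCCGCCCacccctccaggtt
POMT2/GSTZ1 (chr14:77320884-77321035): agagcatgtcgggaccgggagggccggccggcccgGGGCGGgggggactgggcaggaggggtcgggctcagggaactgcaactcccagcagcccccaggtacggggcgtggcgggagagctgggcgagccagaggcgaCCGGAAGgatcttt
KIN/ATP5F1C (chr10:7787994-7788176): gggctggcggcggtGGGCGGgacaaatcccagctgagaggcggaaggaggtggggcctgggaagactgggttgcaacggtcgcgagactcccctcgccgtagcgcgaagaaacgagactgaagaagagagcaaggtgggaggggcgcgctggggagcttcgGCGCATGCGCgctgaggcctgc
ORMDL1/PMS1 (chr2:189784340-189784449): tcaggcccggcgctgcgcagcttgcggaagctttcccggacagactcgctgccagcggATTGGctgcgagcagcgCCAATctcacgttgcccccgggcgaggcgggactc
HSPD1/HSPE1 (chr2:197500275-197500378): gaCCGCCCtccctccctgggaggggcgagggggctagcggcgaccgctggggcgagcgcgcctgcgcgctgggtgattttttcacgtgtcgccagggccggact
SIRT3/PSMD13 (chr11:236932-236975): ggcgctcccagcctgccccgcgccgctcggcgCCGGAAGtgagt

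The stretch between C19orf47 and PLD3, a lysosomal exonuclease gene, held 3 matches in 167 bases, 2 to the GC box and 1 to CCAAT. That of NDUFA8, a subunit of respiratory complex I, and MORN5 held 1 match in 128 bases. Between KIN and ATP5F1C, a subunit of ATP synthase, there was a match to the NRF1 palindrome and 1 to the GC box. Between ORMDL1 and PMS1, a mismatch repair gene, CCAAT occurred on each strand. No TATAAA occurred in any of 188 such stretches of 20 to 250 bases, which had a median GC content of 70.3%. GC boxes occurred in 119 of them, CCAAT in 59, the ETS motif in 47, the CRE motif TGACGTCA in 7, the NRF1 palindrome in 4, a CGCG-centred palindrome in 3 and the YY1 motif AAGATGGC in 2. None of the motifs occurred in 28 of the 188. Stretches at head-to-head pairs without a peak were not counted, so these counts do not tell pairs with a peak from those without. A match is a description of the letters and does not show that a factor binds there.

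The name bidirectional fitted most of the gene-pair peaks but not all of them. Strand was given for both genes at 474 of the 638 peaks. Of these, 405 were head-to-head (85.4%, 95% Wilson interval 82.0 to 88.3%), 67 were tandem (14.1%) and 2 were tail-to-tail (0.422%). The remaining 164 peaks, among them all 42 on chromosome 8, had no strand for at least 1 gene and could not be arranged. In all, the peaks fell at 548 gene pairs, of which 340 were head-to-head and 66 tandem. The genes of a pair were a median of 210.5 bp apart (quartiles 108 and 374 bp, range 1 to 1365 bp). Single-gene peaks leaned to starts as well: of 2843 with a strand, 2825 were at the start, 12 at the end, and 6 at both ends of a short gene.

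To see whether such pairs carried PHF8 more often than other loci, annotated loci were counted, whether or not they had a peak. Lone and arranged loci needed a known strand, so they leave out genes without one, among them all genes on chromosome 8. Of 795 head-to-head loci with at most 1 kb between the starts, 344 had an APOC2 peak within 1 kb of the centre (43.3%, 39.9 to 46.7%), and 89 had a vector peak (11.2%, 9.19 to 13.6%). Of 11981 lone starts, with no other protein-coding boundary within 2 kb, 2460 had an APOC2 peak (20.5%, 19.8 to 21.3%) and 578 a vector peak (4.82%, 4.45 to 5.22%). The head-to-head share was thus higher by 22.7 percentage points in the APOC2 library (19.3 to 26.3) and by 6.37 in the vector library (4.32 to 8.78). Tandem loci had 17.9% and 3.39% in the APOC2 and vector libraries (n = 413). Tail-to-tail loci had an APOC2 peak in 3 of 359 cases (0.836%) and no vector peak, which allows a share of up to 1.06% by the Wilson interval. Neighbouring boundaries without a strand for both genes had 25% and 8.46% (n = 603). Lone gene ends had 0.113% and 0.0323% (n = 12366). PHF8 peaks thus lay where starts were, in both libraries, and were rare where only ends met.

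**Figure D1:**
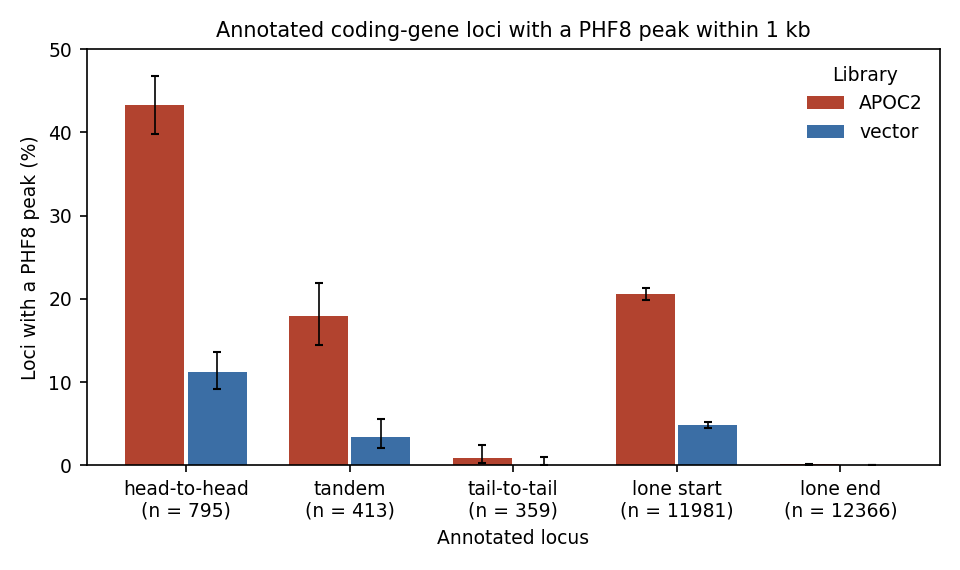
Share of annotated protein-coding loci of known strand with a PHF8 peak whose midpoint was within 1 kb, in the APOC2 (red) and vector (blue) library. Bars give the percentage of loci, error bars the 95% Wilson interval over loci; head-to-head loci reached 43.3% with APOC2, against 20.5% of lone starts and 0.836% of tail-to-tail loci.

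A head-to-head locus offers 2 starts to a peak, so each start was also counted alone, in a window of 500 bp from the start into its own gene. An APOC2 peak lay there at 342 of 1585 head-to-head genes (21.6%, 19.6 to 23.7%) and at 1839 of 11981 lone genes (15.3%, 14.7 to 16.0%). In the vector library the shares were 5.11% (4.13 to 6.31%) and 3.66% (3.33 to 4.01%). The gap between the sets moved with the CpG content of the promoter, known for 91.2% of the head-to-head genes and 87.8% of both sets together. Below 5 CpG per 100 bases the APOC2 shares were 9.09% (5.15 to 15.5%, n = 121) and 2.28% (1.86 to 2.79%, n = 4035). Between 5 and 10 they were 23.2% (20.3 to 26.4%) and 22.4% (21.1 to 23.9%), and above that 23.7% (20.4 to 27.3%) and 28.6% (27.0 to 30.3%). In the APOC2 library head-to-head genes therefore had the larger share among CpG-poor promoters, where it rested on 11 genes with a peak. Their share was within counting error in the middle class. In the most CpG-rich class theirs was the lower value, with intervals that touched. In the vector library the intervals of both sets overlapped in every class. Its CpG-poor shares were 1.65% (0.454 to 5.83%) of head-to-head and 0.471% (0.302 to 0.734%) of lone genes.

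In the APOC2 library the occupancy of head-to-head loci was highest in the shortest and the longest class of distance between the starts. With at most 100 bp between them, 48.8% of loci had an APOC2 peak (42.0 to 55.6%). Above that and up to 250 bp it was 39.7% (34.7 to 44.8%), up to 500 bp 41.3% (34.4 to 48.7%), and up to 1 kb 51.7% (39.2 to 64.1%). In the vector library the shares were 12.7% (8.80 to 17.9%), 11.3% (8.43 to 15.1%), 10.1% (6.46 to 15.3%) and 8.62% (3.74 to 18.6%) in the same order, each lower than the one before. In both libraries the intervals of all classes overlapped.

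The peaks at head-to-head pairs mostly did not sit between the starts. The midpoint was inside 1 of the genes at 354 of 405 peaks (87.4%, 83.8 to 90.3%), at a median of 166 bp past its start, and between the starts at 51 (12.6%). The room between the starts was small, with a median of 178 bp, beside a window of 1 kb to either side. Single-gene peaks at a start were shifted the same way: 78.2% (76.6 to 79.6%) had their midpoint downstream of the start, at a median of 176.5 bp. The plot of midpoints shows the outcome, with a hump on either side of the centre at head-to-head pairs and a main hump downstream of the start at single-gene peaks. Within 250 bp of the centre lay 42.0% of the head-to-head peaks, against 66.1% of single-gene peaks within 250 bp of the start. These shares have unlike reference points, because the centre lies at a distance from both starts.

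**Figure D2:**
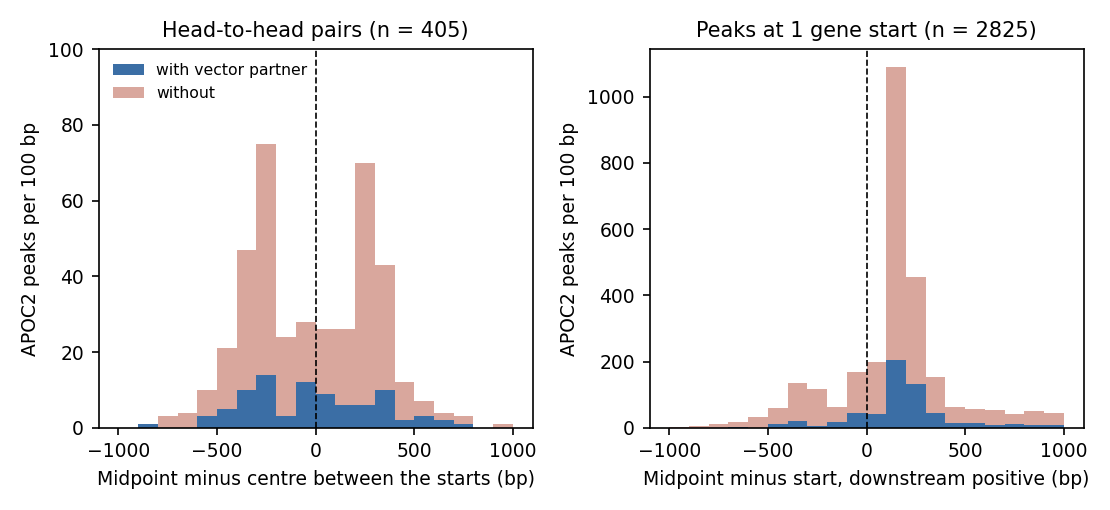
Midpoints of APOC2 peaks in bins of 100 bp, relative to the centre between the starts of 405 head-to-head pair peaks (left) and relative to the start at 2825 single-gene peaks, with the gene running to the right (right). Blue counts have a vector partner and pink ones have none; 87.4% of the head-to-head midpoints lie inside a gene, and 78.2% of the single-gene midpoints lie downstream of the start.

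Some pairs carried a peak on each gene. Of the 340 head-to-head pairs, 65 had 2 separate APOC2 peaks, and at 58 of these a peak lay inside each gene, with a median of 611.5 bp between midpoints. Among annotated loci with an APOC2 peak, peaks on both sides of the centre occurred at 65 of 344 head-to-head loci (18.9%, 15.1 to 23.4%) and at 152 of 2460 lone starts (6.18%, 5.29 to 7.20%). In the vector library it was 7 of 89 (7.87%, 3.86 to 15.4%) and 7 of 578 (1.21%, 0.588 to 2.48%). An example, chosen after its values were seen, is WDR4, a tRNA methyltransferase subunit gene, and NDUFV3, a complex I subunit gene, 310 bp apart on chromosome 21. There the APOC2 library had a fold enrichment of 4.92 at 42892817 to 42893040 and of 6.74 at 42893291 to 42893760, and neither had a vector partner. At another, MRPL50, of the mitochondrial ribosome, and ZNF189 on chromosome 9, the APOC2 peaks had 8.29 and 4.25, and the stronger alone overlapped a vector peak, with 5.69.

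Next, the gene-pair peaks were compared with the vector library. A vector peak overlapped 154 of 638 gene-pair peaks by at least 1 bp (24.1%, 21.0 to 27.6%), and 484 had no vector partner. The vector table was the shorter one, with 4015 peaks, and with equal numbers of top-ranked peaks from both tables the share was 47.3% (41.0 to 53.6%), beside 45.9% (43.1 to 48.7%) of single-gene peaks. Over all APOC2 peaks this share was 37.3%, and over single-gene peaks it was 813 of 3553 (22.9%, 21.5 to 24.3%). The gene-pair share exceeded the single-gene share by 1.26 percentage points, with an interval from -2.20 to 4.98, so no difference was detectable over these peaks. Head-to-head peaks had 21.5% (17.8 to 25.7%) and single-gene peaks at a start 21.1% (19.7 to 22.7%). Tandem peaks had 17.9% (10.6 to 28.7%). Single-gene peaks without a noncoding boundary had 22.5% (20.9 to 24.1%). Among head-to-head peaks, those lying between the starts were overlapped in 19 of 51 cases (37.3%, 25.3 to 51.0%) and those inside a gene in 68 of 354 (19.2%, 15.4 to 23.6%). The former were also longer, with a median of 602 bp against 288.5 bp.

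In the opposite direction, the same rule gave 165 gene-pair peaks in the vector table. Of these, 163 were overlapped by an APOC2 peak (98.8%, 95.7 to 99.7%), against 83.6% of all vector peaks and 97.9% (96.7 to 98.7%) of the 848 single-gene vector peaks. The 2 without a partner were both head-to-head. The stronger lay at CIP2A, an inhibitor of a protein phosphatase, and DZIP3, with a fold enrichment of 6.11 and a pileup of 18.8 fragments, and the other at UIMC1, a DNA damage response gene, and ZNF346, with 5.27 and 20.8. The APOC2 table thus held 3.87 times as many gene-pair peaks as the vector table (3.26 to 4.59), and 4.19 times as many single-gene peaks (3.89 to 4.52). Over all peaks, 8928 against 4015, the factor was 2.22. By gene pair, 147 pairs had a peak in both libraries, which is 26.8% of the APOC2 pairs and 97.4% of the vector pairs.

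The level of the APOC2 peaks was alike in both classes. Fold enrichment over the local background had a median of 5.30 at gene-pair peaks (5.16 to 5.54) and of 5.30 at single-gene peaks (5.22 to 5.38), and the median pileup was 28 fragments in each. Gene-pair peaks with a vector partner were higher and longer than those without, with medians of 7.01 against 4.97 in fold enrichment, 38 against 26 in pileup and 476.5 against 273 bp in length. When both classes were divided by peak length, the overlap with vector peaks ran from 3.98% (1.94 to 7.98%) of gene-pair peaks of at most 248 bp to 54.9% (47.3 to 62.4%) of those of at least 444 bp. Single-gene peaks went from 4.32% to 47.6% in the same classes. Divided into quartile classes of fold enrichment, the order of gene-pair and single-gene peaks was not stable. Class 3 had 30.5% (23.8 to 38.2%) of gene-pair against 18.9% (16.5 to 21.6%) of single-gene peaks, and class 1 had 7.33% against 5.67%. In classes 2 and 4 the gene-pair value was the lower one, with 8.88% against 13.1% and 49.1% against 54.1%.

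At the 154 shared gene-pair peaks the APOC2 library had the higher fold enrichment in 139 cases (90.3%). At shared single-gene peaks it was 722 of 811 (89.0%), while over all 3300 shared pairs it was 55.3%. On the log2 scale the APOC2 value exceeded the vector value by a median of 0.53 (0.39 to 0.61), the same to 2 decimals as at 811 single-gene pairs (0.53, 0.49 to 0.56). The pileups of the tables were in units of unequal depth. They were therefore also brought to the depth of the control, which assumes that both libraries were called against the same control. With this depth-scaled pileup the median was 0.53 (0.46 to 0.60), a ratio of 1.44, at gene-pair peaks and 0.58 (0.54 to 0.61) at single-gene peaks. A rise of at least 1.5-fold in depth-scaled pileup occurred at 68 of 154 gene-pair peaks (44.2%, 36.5 to 52.0%), at 49.2% (45.8 to 52.6%) of single-gene peaks and at 20.2% of all shared pairs. A fall of that size occurred at 0 gene-pair and 0 single-gene peaks, against 5.21% of all shared pairs. These counts depended on the scaling. With pileup as deposited the median at gene-pair peaks was 0.26 and that of all shared pairs -0.11. Rises of at least 1.5-fold then numbered 30 (19.5%, 14 to 26.4%) and falls 3 at gene-pair peaks, against 7.88% and 14.7% of all shared pairs. At single-gene peaks there were 162 rises (19.98%, 17.4 to 22.9%) and 9 falls.

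**Figure D3:**
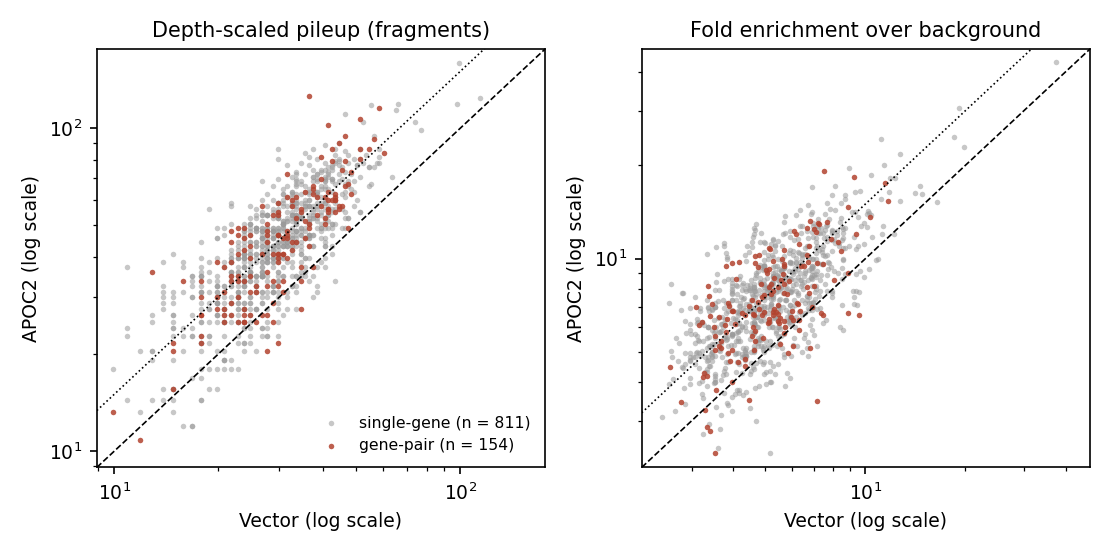
Signal at shared peaks in the vector (x axis) and APOC2 library (y axis), both on log scales, as depth-scaled pileup in fragments (left) and as fold enrichment (right). Red points are 154 gene-pair peaks and grey ones 811 single-gene peaks; the dashed line marks equality and the dotted line a 1.5-fold rise, and 144 of the 154 red points lie above equality on the left.

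The 5 strongest gene-pair peaks were all on chromosome 8. SHARPIN, of the linear ubiquitin ligase complex, and MAF1, a repressor of RNA polymerase III, had the highest fold enrichment of all 638 at 144103380 to 144104967, with 19.1 in the APOC2 and 7.52 in the vector library. This peak was also the widest (1588 bp, ahead of TATDN1/NDUFB9 with 1460 bp and TBC1D16/CCDC40 with 1233 bp). It had the largest depth-scaled ratio as well, with 36.6 fragments (vector) and 126 fragments (APOC2), or 3.44-fold. Its APOC2 summit, at 144104706, lay outside the paired vector peak at 144103460 to 144104208. These pileups were therefore read at different places. TATDN1 and NDUFB9, a complex I subunit gene, had 18.4 and 9.24 at 124538369 to 124539828. At TMEM276-ZFTRAF1 and KIFC2, a kinesin gene, the values were 17.5 and 11.4. NUDCD1 and ENY2, a subunit of the SAGA coactivator, had 15.3 and 11.7. BOP1, a ribosome biogenesis gene, and HSF1, the heat shock transcription factor, had 14.6 and 8.85. All 5 were higher in the APOC2 library by fold enrichment and by depth-scaled pileup.

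Outside chromosome 8 the list went on with peaks of other kinds. C19orf47/PLD3 on chromosome 19 had 14.3 and no vector partner. TXNL4A, of the spliceosome, and RBFA, a mitochondrial ribosome assembly factor, had 13.6 in the APOC2 and 10.4 in the vector library on chromosome 18. DNLZ, a mitochondrial chaperone partner, and CARD9, an immune signalling adaptor, had 13.2 and 6.79 on chromosome 9.

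The largest depth-scaled ratios after SHARPIN/MAF1 lay on several chromosomes. DDX24, an RNA helicase gene, and IFI27L1 on chromosome 14 had 12.9 fragments (vector) and 36.01 fragments (APOC2) (2.80-fold). The fold enrichment was 4.60 and 6.005. Here too the APOC2 summit, at 94080975, lay outside the paired vector peak at 94081358 to 94081592, so the values come from different places. POMT2, a glycosyltransferase of the endoplasmic reticulum, and GSTZ1, of tyrosine breakdown, went from 41.6 to 102 fragments (2.46-fold). ENTR1 and PMPCA, a subunit of the mitochondrial processing peptidase, went from 31.7 to 72.0 (2.27-fold). SEPTIN10 and SOWAHC went from 21.8 to 48.0 (2.21-fold). These are the highest values of the 154 and are chosen for that.

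At the low end, 10 of the 154 pairs had a depth-scaled ratio of at most 1. KDM5C, a demethylase of histone H3, and IQSEC2 are tandem neighbours on the X chromosome, with 29.7 fragments (vector) and 21.6 fragments (APOC2) (0.728-fold). CDNF and MSANTD7 went from 27.7 to 20.4 (0.736-fold). ATPAF1, an assembly factor of ATP synthase, and TEX38 went from 34.6 to 27.6 (0.797-fold). HARS1 and HARS2, the cytosolic and the mitochondrial histidyl-tRNA synthetase, went from 28.7 to 25.2 (0.878-fold). SELENOF and HS2ST1 went from 11.9 to 10.8 (0.910-fold).

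Of the 484 gene-pair peaks without a vector partner, C19orf47/PLD3 had the highest fold enrichment, with 37 fragments, while the pileup among them reached 85. Fragments of these unpartnered peaks are pileups as deposited, not depth-scaled. The depth-scaled value of C19orf47/PLD3 was 44.4. STAT2, a transcription factor of the interferon response, and APOF, an apolipoprotein gene, followed on chromosome 12 at 56359880 to 56360169, with a fold enrichment of 11.0 and 30 fragments. KIF18A, a mitotic kinesin, and METTL15, a mitochondrial RNA methyltransferase, had 10.4 and 18 fragments on chromosome 11. PDCD10, a kinase-associated vascular gene, and SERPINI1, a neuronal serine protease inhibitor, had 10.2 and 46 fragments on chromosome 3. CBX5, which encodes a heterochromatin protein, and HNRNPA1, an RNA-binding protein gene, had 10.1 and 26 fragments. No vector peak was called at these places, which does not show that signal was absent there.

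A list of 17 well-known neighbouring pairs was looked up whether or not they had a peak. An APOC2 peak lay at both genes of 10 pairs and a vector peak at both genes of 2, and 9 of the 17 were among the gene-pair peaks. SURF1, an assembly factor of cytochrome oxidase, and SURF2, 62 bp apart on chromosome 9, had a fold enrichment of 12.2 in the APOC2 and 7.08 in the vector library. RECQL4, a DNA helicase, and LRRC14 had 8.67 and, at the paired of 2 vector peaks, 5.32. The others had an APOC2 peak alone. NPAT, a histone gene regulator, and ATM, the DNA damage kinase, had 6.01, TAP1 and PSMB9, both of antigen processing, 6.65, and ORMDL1/PMS1 5.17. PRKDC, a DNA repair kinase, and MCM4, of the replicative helicase, had 4.83. HSPD1 and HSPE1, the mitochondrial chaperonins, had 4.15, and SIRT3 and PSMD13 had 3.97. No peak lay at both genes of COL4A1/COL4A2, PPAT/PAICS, CHEK1/STT3A, SART3/ISCU, MRPS12/SARS2 or CTDSPL2/EIF3J, of which the genes of CHEK1/STT3A and CTDSPL2/EIF3J lie over 2 kb apart and those of PPAT/PAICS overlap.

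Gene families were then counted. Of 4778 protein-coding genes with an APOC2 boundary peak, 1111 were at a gene-pair peak (23.3%, 22.1 to 24.5%). The share was 14 of 27 for genes of the mitochondrial ribosome (51.9%, 34.0 to 69.3%), 10 of 22 for complex I subunits and assembly factors (45.5%, 26.9 to 65.3%) and 10 of 22 for a list of DNA repair genes (45.5%, 26.9 to 65.3%). RNA polymerase genes had 8 of 22 (36.4%, 19.7 to 57.0%), EIF translation factor genes 8 of 24 (33.3%, 18.0 to 53.3%) and proteasome genes 6 of 24 (25%, 12.0 to 44.9%). Lower in the order stood TMEM genes with 17 of 69 (24.6%), the KDM, KMT and PHF genes with 4 of 17 (23.5%), SLC genes with 15 of 92 (16.3%), mitochondrial import genes with 1 of 8 (12.5%, 2.24 to 47.1%), RAB genes with 3 of 25 (12%) and ZNF genes with 18 of 155 (11.6%, 7.47 to 17.6%). Of the HOX genes 1 had a peak, which was not at a pair. How many genes of a family have a close neighbour at all also differed. A close coding neighbour, within 1 kb, exists for 45.5% of the mitochondrial ribosome genes, 50% of the complex I and 50% of the DNA repair genes, but for 19.6% of all protein-coding genes and 12.4% of ZNF genes. It also exists for 41.2% of the RNA polymerase, 38% of the proteasome and 44% of the mitochondrial import genes. The shares of these families at gene-pair peaks had wide intervals that held the overall 23.3%. Whether close neighbours account for the family shares was not tested.

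Among mitochondrial ribosome genes, MRPS28, beside TPD52, had a fold enrichment of 9.24 in the APOC2 and 5.11 in the vector library. MRPL37, beside CYB5RL, had 7.41 and no vector partner. MRPL13, beside MTBP, had 5.31 and 5.54 and a depth-scaled log2 ratio of -0.017. Among complex I genes, NDUFA8/MORN5 had 13.2 and 7.67, and NDUFAF2, beside ERCC8, had 4.65 and 4.14. MRPL47 and NDUFB5, which belong to the mitochondrial ribosome and complex I, share a peak with 4.46 and no vector partner. Among DNA repair genes, CHEK2, a checkpoint kinase, beside HSCB, had 9.21 and 5.01, and WRN, a helicase, beside PURG, had 5.81 and 3.79. APEX1, LIG4, RAD51C and XRCC6 had between 3.85 and 6.24 in the APOC2 library without a vector partner. Of the histone demethylase and methyltransferase genes, KDM5A, beside CCDC77, had 5.08 and 3.96, and KDM1B, beside TPMT, had 7.42 in the APOC2 library alone.

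Sequence was compared between promoters of 300 bases, 250 before to 50 after the start, which are not independent within a pair because they overlap. Of 680 genes at head-to-head peaks, 614 had such a sequence, as had 2414 of 2624 genes at single-gene peaks at a start. CCGGAAG occurred in 31.4% of the head-to-head promoters (27.9 to 35.2%), in 21.4% of the single-gene ones (19.8 to 23.1%) and in 14.6% of the promoters of all protein-coding genes that had one (n = 13819). CCAAT occurred in 43.5% (39.6 to 47.4%), 35.3% (33.4 to 37.2%) and 37.2% of these sets. TATAAA occurred in 1.63% (0.887 to 2.97%), 4.06% (3.34 to 4.92%) and 10.03%. GC boxes had overlapping intervals in both sets, with 80.3% (77.0 to 83.2%) and 78.6% (76.9 to 80.2%), against 58.5% of all protein-coding ones. The median GC content was 66.3% and 67.7%, against 62.7%. AAGATGGC occurred in 7.98% (6.09 to 10.4%), 5.39% (4.55 to 6.36%) and 4.11%. Over all 35116 promoters of the table, noncoding genes included, CCGGAAG had 10.3%, CCAAT 34.6%, TATAAA 11.5%, GC boxes 45.0% and AAGATGGC 2.89%. Motif matches were counted on both strands and may overlap one another. Head-to-head promoters without a peak were not counted as a set. These values therefore do not tell whether the motif shares differ between head-to-head pairs with and without a peak.

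The chromosomes differed in how many gene-pair peaks had a vector partner. On chromosome 8 it was 30 of 42 (71.4%, 56.4 to 82.8%) and on chromosome 9 it was 32 of 56 (57.1%, 44.1 to 69.2%). Single-gene peaks there had 56.3% (50.1 to 62.4%) and 41.0% (34.9 to 47.4%). On chromosome 19 none of 33 gene-pair peaks had a partner, which allows a share of up to 10.4% by the Wilson interval, while 35 of 193 single-gene peaks did (18.1%, 13.3 to 24.2%). Without chromosomes 8 and 9 the overlap was 17.0% (14.1 to 20.4%) of 540 gene-pair peaks and 18.8% (17.5 to 20.3%) of single-gene peaks. At shared gene-pair peaks the log2 difference in fold enrichment had a median of 0.61 (0.45 to 0.70) on chromosomes 8 and 9 and of 0.42 (0.35 to 0.57) on the others.

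**Figure D4:**
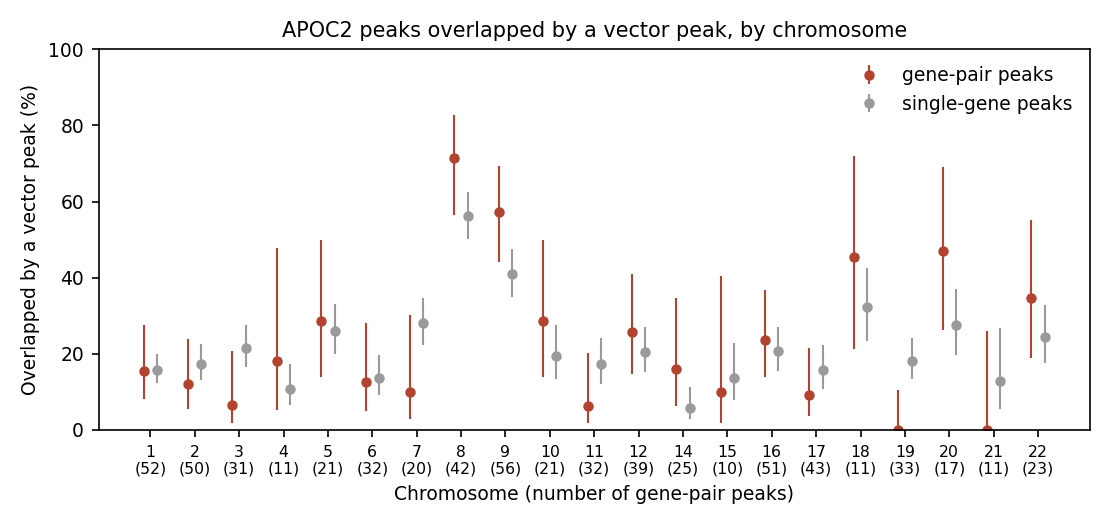
Share of APOC2 peaks overlapped by a vector peak on each chromosome with at least 10 gene-pair peaks, for gene-pair (red) and single-gene peaks (grey). Points give the percentage, bars the 95% Wilson interval and numbers in brackets the gene-pair peaks; chromosomes 8 and 9 stand highest in both classes, with 71.4% and 57.1% of gene-pair peaks.

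Few peaks lay close to the limit of 1 kb. Just inside it, a peak at MBD1 and CXXC1 had its farther boundary at 993 bp and a fold enrichment of 5.77, and one at MYO19 and GGNBP2 had 996 bp and 3.95. Just outside, NAIF1 and SLC25A25 had 1004 bp and 7.91, and CYBA and MVD had 1012 bp and 5.68. In all, 26 gene-pair peaks had their farther boundary beyond 900 bp, and 21 single-gene peaks had a second gene between 1 kb and 1100 bp. Larger shifts of the limit changed the membership more. With 500 bp there were 430 gene-pair peaks and with 2 kb 827, against 638 with 1 kb.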

How the data were processed

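Per the submitters' processing notes, Bowtie2 2.2.9, MACS2 2.0 and HOMER were used with build hg38; thresholds, the control library and duplicate removal are not given in the sources used here. Per the file headers, the deposited tables list each peak with its signal (fragment pileup at the summit) and its fold over the local background. The deposited columns whose names were lost, 2 in number, hold -log10 of the p-value and q-value, as judged from their place and values.

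Genes and boundaries came from RefSeq (GRCh38.p14, 20056 placed protein-coding genes). Strand was read from the promoter table, which covered 79.0% of them and none on chromosome 8. A peak was assigned to the non-overlapping pair with the smallest gap. Peaks were paired by longest overlap, each used once. Each pileup is that at the peak's own summit, so paired values can come from different places. Vector pileups were whole multiples of 0.98953 (99.8%, within 0.0051), and APOC2 backgrounds were spaced by 0.833 (64.4% within 0.01), so depth-scaled pileup is APOC2 pileup divided by 0.833 beside vector pileup as deposited. Absolute depth is unknown. Wilson, Newcombe (differences of shares) and order-statistic (medians) 95% intervals cover counting error over peaks, genes or loci only; neither these nor fragments without molecular identifiers are independent replicates. No p-value was computed. Scripts used Python 3.11.15, scipy 1.17.1 and pandas 2.3.3 and were tested on simulated data.

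Named peaks were the 8 with the highest fold enrichment, the 5 largest and 5 smallest depth-scaled ratios, the 5 strongest without a partner, unpartnered vector peaks, the 3 widest, those at the window limit, and a list of known pairs, of which 2 are counted but not reported here by name; family members came from symbol lists, and pairs with 2 peaks were named after their values were seen. The members and lists were chosen with earlier results of these data known. The counts over annotated loci and starts were added after the data had been seen. Alternatives covered windows, overlap rules, thresholds, chromosomes and signal measures.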

Additional observations from a re-analysis of the deposited data

How the results depend on the processing

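With 1 library per condition no library could be left out. No paired analysis was possible because each condition had 1 sample. Of 88 recomputed values, 58 stayed within their interval (or within 1.5 times for counts), and 30 did not. The difference in vector overlap between gene-pair and single-gene peaks stayed within its interval under every alternative run for it. That interval includes 0, and the sign of the difference was not stable: it was 1.26 points as reported, but -0.56 with a window of 500 bp, -0.82 with 2 kb, -0.72 with 50% overlap and -1.80 without chromosomes 8 and 9. When the peak itself had to overlap a boundary of each gene, 89 peaks at 89 pairs were left. A fold enrichment of at least 5 left 374 peaks at 340 pairs, with 20.4% vector overlap of single-gene peaks and a median log2 ratio there of 0.46; annotated head-to-head loci then had a peak in 26.9% (APOC2) and 6.42% (vector), and lone starts in 11.8% and 2.35%. With 50% of both peaks overlapping, the shares were 16.9% (gene-pair), 17.6% (single-gene) and 66.7% of vector gene-pair peaks; with peaks within 1 kb counted as shared, 27.9% and 25.5%. With equal numbers of top-ranked peaks, 47.3% of gene-pair and 45.9% of single-gene peaks had a partner. Without chromosomes 8 and 9 these shares were 17.0% and 18.8%, and without chromosome 8, an alternative chosen after seeing the data, 20.8% and 20.4%. With starts only, 21.1% of single-gene peaks were overlapped. Pileup as deposited gave median log2 ratios of 0.26 and 0.31; at single-gene peaks depth-scaled pileup gave 0.58 and the ratio without the added 1 gave 0.59. For annotated loci, also chosen after seeing the data, a window of 500 bp gave 18.8% (APOC2) and 4.32% (vector) of lone starts, and leaving out chromosome 9 gave 8.71% of head-to-head loci and 4.37% of lone starts in the vector library. Where no reason is stated, the cause was not tested. Without depth or replicates, a peak called in 1 table alone cannot be told apart from one just under the threshold in the other.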
